A study of Danio rerio with 16 samples.

Results

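The vascular endothelial growth factor (VEGF) family was followed through 9 zebrafish genes, namely the 4 receptor genes kdrl, kdr, flt1 and flt4 and the 5 ligand genes vegfaa, vegfab, vegfba, vegfc and vegfd. Accessible chromatin was mapped with ATAC-seq, in which the Tn5 transposase inserts sequencing adapters where DNA is open. A peak was counted for a gene where the annotation of the deposited lists named that gene as the nearest, which gave 20 of 9466 differential peaks. The genes kdrl and flt1 had 5 peaks each, flt4 had 4, and kdr, vegfaa and vegfc had 2 each. No differential peak had vegfab, vegfba or vegfd as its nearest gene.

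Embryos carrying both TgBAC(runx1P2:Citrine) and Tg(kdrl:mCherry), and no other modification named in the labels, were dissociated whole at 28 to 30 hpf, and 2000 to 3000 cells per library were sorted. DP-R1hi cells were mCherry+ and Citrine high and are labelled haemogenic endothelium (HE). DP-R1lo cells were mCherry+ and Citrine low and are labelled aortic endothelium, which the study calls aortic roof endothelium (ARE). The series has 3 libraries for each of 5 sorted populations and 1 library of genomic DNA, and the lists compare DP-R1hi with DP-R1lo after the authors had left out 1 replicate of each. Citrine is driven by runx1 regulatory sequence on a bacterial artificial chromosome and mCherry by kdrl regulatory sequence. Both populations carry the kdrl transgene, and its reads cannot be told apart from those of kdrl itself in the lists.

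VEGF ligands bind receptor tyrosine kinases on endothelial cells and control how vessels form, sprout and become arterial. In zebrafish, Kdrl and Kdr carry the main Vegfa signal, and Flt1 binds Vegfa and limits it. Flt4 receives Vegfc and acts in venous and lymphatic sprouting. During the change from endothelium to blood, haemogenic cells lose endothelial traits.

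In the following, each value is the authors' mean of normalized reads in a population, on a log2 scale, where a step of 1 is a 2-fold change. The means were not scaled here to peak width, so levels of peaks of unlike width are not directly comparable. The lists hold no value per library. No standard deviation, depth or new test across replicates could thus be given, and all differences are descriptions of group means. The authors' own edgeR test of this contrast was not used beyond the lists it gave. Every listed peak had been chosen by the authors on this same contrast, with an absolute difference of at least 0.71. The lowest value listed was -0.14 for DP-R1hi and -0.27 for DP-R1lo. A difference against that lowest value says only that signal was at the bottom of the scale, and is given as listed. In sorted bulk cells a lower mean cannot tell fewer cells with an open site from less opening in each cell.

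Differential peaks around haemogenic marker genes mostly lay in the list of their population. Those around arterial markers and around venous and lymphatic markers alike mostly lay in that of ARE. Of all 9466 peaks 59.2% were ARE-specific (more open in DP-R1lo), as were 45 of the 69 peaks (65.2%) nearest to a gene of the whole marker list. Of 11 peaks nearest to HE markers, 8 were HE-specific (more open in DP-R1hi), and 15 of 19 peaks nearest to arterial markers were ARE-specific. The HE marker peaks in the ARE-specific list were 1 of tal1 and 2 of itga2b. In the list of arterial markers, dll4 gave 6 ARE-specific peaks and cdh5 gave 3. The paper groups cdh5 with endothelial rather than arterial genes. The HE-specific peaks of this list were of hey2 (2), efnb2a (1) and notch1b (1). The HE markers runx1, gata2b, dnmt3bb.1 and ptprc had no differential peak, nor had tbx20 and tie1 of the arterial list. Venous and lymphatic markers had 18 of 22 peaks in the ARE-specific list. Erythroid markers had 6 of 7 peaks in the HE-specific list, with at least 1 such peak for each of gata1a, hbbe3, hbae3, alas2 and klf1. Neuronal markers had 4 of 5 peaks, myotome markers 2 of 2 and sclerotome and neural crest markers 2 of 3 in the ARE-specific list, and pronephros markers had no peak. The part of these other cell types in the VEGF results was not tested.

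The chromatin around VEGF receptors was more open in ARE than in HE at each differential site. All 16 receptor peaks were ARE-specific, as were 3 of 4 ligand peaks, so that 19 of 20 family peaks lay in that list. Over all peaks 59.2% did. The median difference of DP-R1hi minus DP-R1lo was -4.03 over the 20 family peaks and -1.89 over all 9466 peaks. For 8 of the family peaks the DP-R1hi mean was the lowest listed, and without them the family median was -2.62. Within the ARE-specific list the family peaks stood close to the rest, with a median difference of -4.06 against -3.90. The share of ARE-specific peaks in the family thus lay above that of all peaks, while the size of the differences lay near that of the list.

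**Figure D1:**
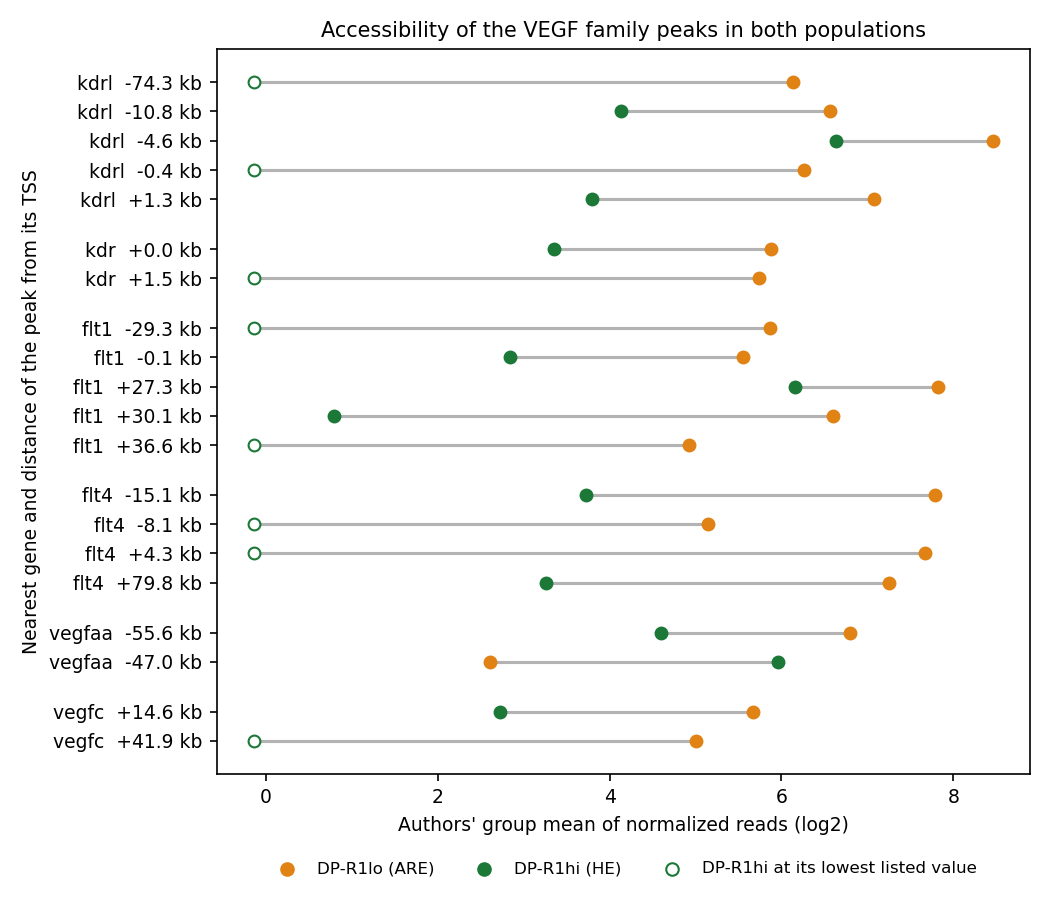
Authors' group means of normalized reads (log2, x axis) for the 20 peaks nearest to a VEGF family gene, named by gene and distance from the TSS (y axis), in DP-R1lo (orange) and DP-R1hi (green). DP-R1lo is the higher one in 19 of 20 peaks, and open circles mark the 8 peaks at the lowest DP-R1hi value of -0.14.

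The receptor gene kdrl, the standard marker of zebrafish endothelium, had 5 ARE-specific peaks on chromosome 14 (all positions are those of GRCz10). The promoter peak (32704174 to 32705107, 399 bp upstream of the TSS) had 6.26 in DP-R1lo and -0.14, the lowest value, in DP-R1hi. A peak in intron 1 of 29 (32702629 to 32703310) lay 863 bp from it and had 7.08 in DP-R1lo and 3.80 in DP-R1hi. The promoter and the first intron thus differed in HE, where the intron had 10.3% of the ARE level while the promoter was at the bottom of the scale.

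Upstream of kdrl, a peak of 2216 bp (32707756 to 32709971, 4622 bp from the TSS) had 8.46 in DP-R1lo and 6.63 in DP-R1hi. It had the highest mean of the family peaks in both populations, and 97.9% of ARE-specific peaks had a lower DP-R1lo mean. It was also the widest family peak, against a median width of 489.5 bp in the ARE-specific list. The HE level was 28.1% of the ARE level there. A further peak at 10829 bp upstream (32714837 to 32715303) had 6.57 in DP-R1lo and 4.13 in DP-R1hi, a difference of -2.44. These 4 peaks span 12675 bp. The last peak lay far upstream at 74293 bp (32778086 to 32778983), with 6.13 in DP-R1lo and the lowest value in DP-R1hi. DP-R1hi cells were sorted as mCherry+, that is, with a kdrl-driven protein present, and the part of the transgene in the values at kdrl was not tested.

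The paralogue kdr, which acts beside kdrl as a second VEGF receptor 2 in fish, had both of its ARE-specific peaks at the start of the gene on chromosome 20. The promoter peak (22321131 to 22321578, 39 bp from the TSS) had 5.88 in DP-R1lo and 3.35 in DP-R1hi, so that the HE level was 17.3% of the ARE level. The peak in intron 1 of 31 (22322606 to 22322948) had 5.74 in DP-R1lo and -0.14 in DP-R1hi. The order was the reverse of that at kdrl, as here the first intron and not the promoter was at the lowest value. For kdr the 2 peaks lay 1027 bp apart.

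The gene flt1 encodes the VEGF receptor that binds Vegfa tightly and signals weakly, and is made in membrane-bound and soluble forms. Its 5 ARE-specific peaks lay on chromosome 24, upstream of the gene, at its promoter and in its middle part. The promoter peak (21663487 to 21663921, 59 bp upstream) had 5.55 in DP-R1lo and 2.84 in DP-R1hi. An upstream peak at 29262 bp (21692495 to 21693320) had 5.87 in DP-R1lo and the lowest value in DP-R1hi. The upstream site thus had no signal above the bottom of the scale in HE, while the HE level at the promoter was 15.3% of the ARE level.

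Inside flt1, 3 peaks lay in the last exon of the shorter annotated transcript or beyond it. A peak of 828 bp in the 3' UTR of the shorter transcript, its exon 11 of 11 (21635945 to 21636772), had 7.82 in DP-R1lo and 6.16 in DP-R1hi. It was the family peak with the smallest difference, -1.66, and the HE level was 31.6% of the ARE level. At 2089 bp from it, a peak in intron 10 of 29 of the longer transcript (21633158 to 21633855) had 6.60 in DP-R1lo and 0.79 in DP-R1hi. The peak in intron 13 of 29 (21626848 to 21627203) had the lowest DP-R1lo level of the ARE-specific family peaks, 4.92, with -0.14 in DP-R1hi. Neighbouring sites in 1 gene thus ranged in HE from 6.16 to the bottom of the scale.

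The gene flt4, whose product is a receptor for Vegfc, had 4 ARE-specific peaks on chromosome 14. A peak in intron 1 of 29 (15646429 to 15647150, 4305 bp from the TSS) had 7.67 in DP-R1lo and -0.14 in DP-R1hi. The listed difference of -7.81 was the largest of the family, but it is a difference against the lowest DP-R1hi value. Of ARE-specific peaks 90.9% had a lower DP-R1lo level. The peak at 8060 bp upstream (15658968 to 15659341) had 5.15 in DP-R1lo and also the lowest value in DP-R1hi. The outer sites both had signal above the bottom of the scale in HE. The peak at 15100 bp upstream (15665761 to 15666627) had 7.79 in DP-R1lo and 3.73 in DP-R1hi, and that in intron 10 of 29 (15570915 to 15571581) had 7.25 and 3.26. No promoter peak was listed for flt4.

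The ligand genes had few peaks, and they included the only HE-specific site of the family. Around vegfaa, an orthologue of the main vascular ligand VEGFA, 2 intergenic peaks on chromosome 16 lay 8286 bp apart and went in opposite directions. The nearer one (4534805 to 4535156, 46975 bp upstream) had 5.96 in DP-R1hi and 2.61 in DP-R1lo, a difference of 3.35. The farther one (4543443 to 4543856, 55644 bp upstream) had 4.60 in DP-R1hi and 6.80 in DP-R1lo, a difference of -2.20. These distances were given to different vegfaa transcripts, and neither site lay near the promoter. Of the 1138 genes with exactly 2 peaks, 32.5% had 1 in each list, so that this pattern was common.

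The gene vegfc, which encodes a ligand of Flt4, had 2 ARE-specific peaks in its introns on chromosome 1. The paper counts vegfc among its arterial markers. The peak in intron 1 of 6 (38175358 to 38175712) had 5.67 in DP-R1lo and 2.73 in DP-R1hi. The peak in intron 4 of 6 (38147994 to 38148441) had 5.01 in DP-R1lo and -0.14 in DP-R1hi. An HE-specific peak lay 5563 bp away in the same intron 4 (38142098 to 38142430), with 4.32 in DP-R1hi and -0.27, the lowest value, in DP-R1lo. It was annotated to another gene, spcs3, whose TSS was the nearest, and was not counted above. By position, intron 4 of vegfc thus held a site of each direction, as did the region upstream of vegfaa. A second peak of this kind lay in exon 30 of 30 of flt4 (15511517 to 15512086 on chromosome 14), was annotated to ergic1 and was ARE-specific, with 6.80 in DP-R1lo and 4.35 in DP-R1hi.

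For vegfab, vegfba and vegfd no accessibility can be read from the lists, because they hold differential peaks only. All 9466 peaks were annotated to curated RefSeq transcripts, and vegfba has only predicted ones in the RefSeq table used here, so that a peak beside it may have been given to another gene. The genes vegfab and vegfd each have at least 1 curated transcript there.

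**Figure D2:**
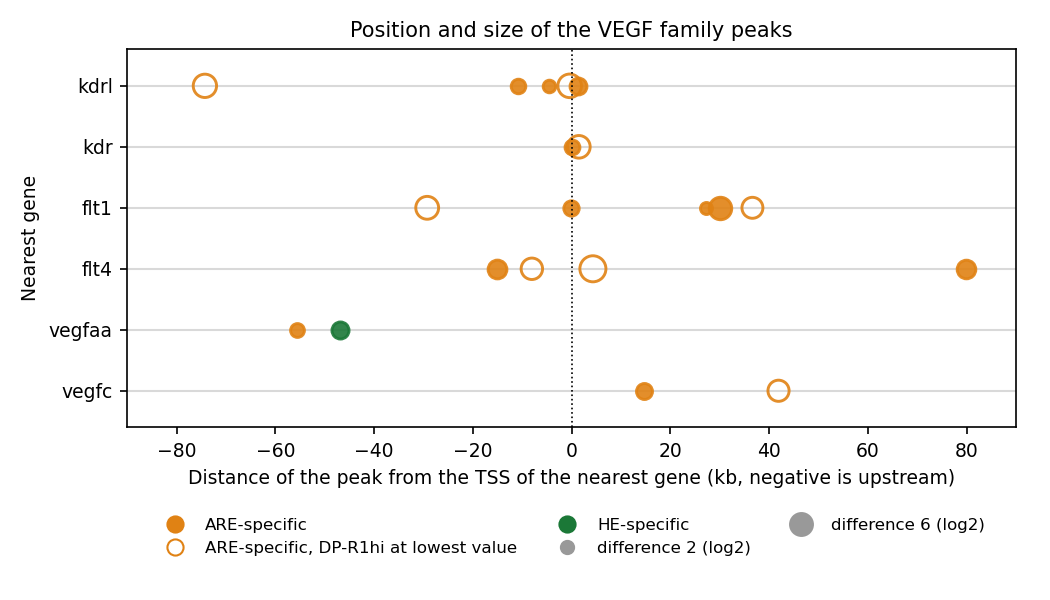
Distance of the family peaks from the TSS of the nearest gene (kb, x axis) by gene (y axis), with circle area proportional to the absolute log2 difference. Orange circles are ARE-specific and the green one, at vegfaa, is HE-specific; open circles mark the lowest DP-R1hi value, as at the kdrl promoter and in the first introns of kdr and flt4.

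The family peaks lay close to their genes. Of the 20 peaks, 3 (15.0%) were promoter peaks, 8 (40.0%) lay in introns, 8 (40.0%) were intergenic and 1 lay in a 3' UTR, against 5.35%, 24.8% and 62.8% of all peaks at promoters, in introns and between genes. Among the 19 ARE-specific family peaks 15.8% were at promoters, against 4.69% of the ARE-specific list. The 3 promoter peaks were those of kdrl, kdr and flt1, and all were ARE-specific, as were 52% of the 506 promoter peaks in the lists. The median distance to the TSS was 14845 bp for the family and 31017 bp for all peaks. It was 9445 bp for the receptors and 44441 bp for the ligands, of which none had a peak within 10 kb.

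In 8 of the 19 ARE-specific family peaks the DP-R1hi mean was the lowest listed, as it was in 36.6% of the ARE-specific list. The 8 peaks came from kdrl, flt1 and flt4 with 2 each and from kdr and vegfc with 1 each. Their median DP-R1lo level was 5.81, against 5.12 for all 2049 ARE-specific peaks at that value. These 8 peaks were also wider, with a median of 585 bp against 411 bp. The remaining 11 peaks had DP-R1hi levels from 0.79 to 6.63, and their median difference was -2.71, close to the -2.83 of all 3553 ARE-specific peaks above the lowest value. A difference of at least 5 was listed for 9 of the 19 peaks, against 26.8% of the ARE-specific list, and 8 of these 9 were at the lowest value.

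**Figure D3:**
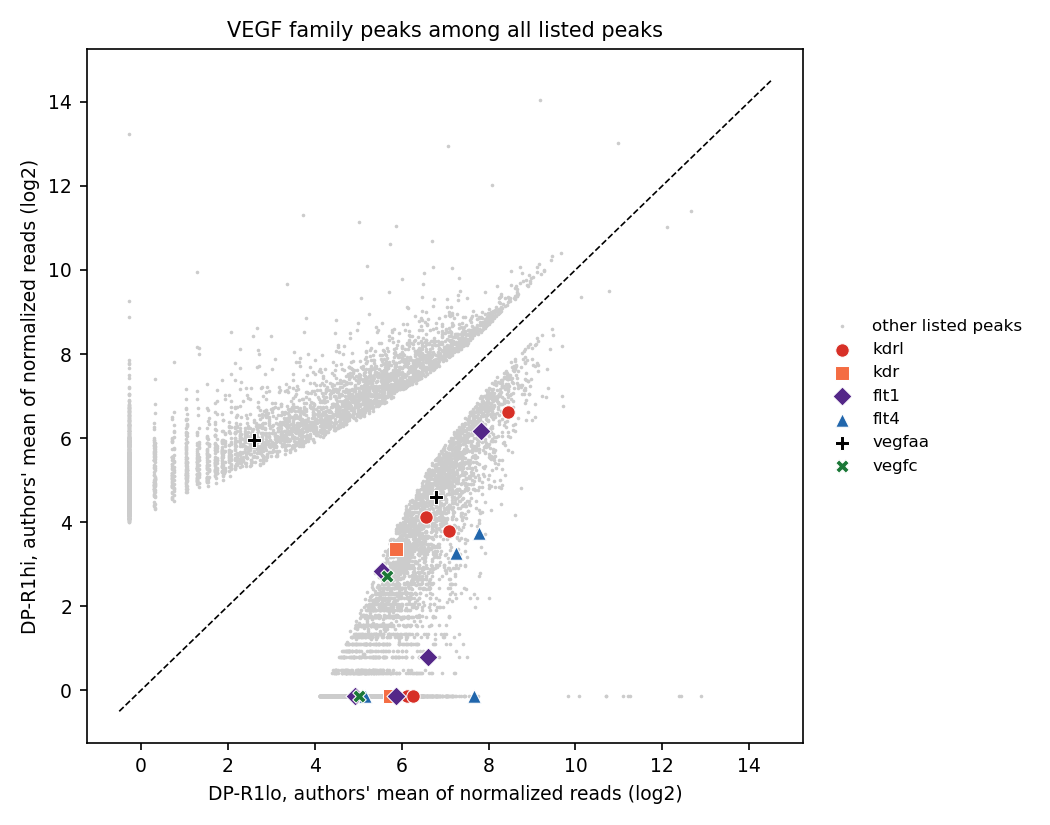
DP-R1lo (x axis) against DP-R1hi (y axis), both as authors' means of normalized reads (log2), for all listed peaks (grey) and the family peaks (coloured by gene). The dashed line marks equal values, the band near it is empty because the lists hold differential peaks only, and 1 vegfaa peak is the family peak above the line.

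HE-specific peaks were also counted within 150 kb of the outermost peaks of each family gene that had peaks. No such count was made around genes outside the family, so the usual number is not known. None was found for flt1, flt4 and kdr. The stretch around kdrl had 1, which lay 40928 bp beyond its farthest upstream peak and had pdzd11 as the nearest gene (7.15 in DP-R1hi and 4.80 in DP-R1lo). For flt1 the next HE-specific peak was 518003 bp away. ARE-specific peaks nearest to other genes also lay in the stretches around the receptors, namely 4 around flt4, 5 around kdrl and 2 around kdr. Of the 4 around flt4, 1 is the peak in the last exon of flt4 that was annotated to ergic1. Of the 2 around kdr, 1 was nearest to kita, a gene for another receptor tyrosine kinase. The stretch around vegfaa had 2 HE-specific peaks, its own included, and that around vegfc had 1. For vegfaa and vegfc an HE-specific and an ARE-specific peak lay within 10 kb of each other.

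Among genes with as many peaks as kdrl and flt1, those with a single direction were a minority. Of 128 genes with exactly 5 peaks, 31 (24.2%) had all of them in the ARE-specific list. For genes with exactly 4 peaks, as flt4, the share was 31.9%, and for those with 2, as kdr and vegfc, it was 40.2%. The 3 genes with 5 ARE-specific peaks and a median difference nearest to that of kdrl (-3.28) were zgc:172215, zcchc24 and irx3a, with -3.28, -3.26 and -3.14. The median of flt1 is itself a difference against the lowest DP-R1hi value, and no genes are set beside it. With 2 group means per peak this likeness rests on peak number and median only.

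The other genes of the pathway had peaks in both directions. Of 42 listed genes 24 had a differential peak, 10 of them only ARE-specific, 6 only HE-specific and 8 both. Of their 61 peaks 43 (70.5%) were ARE-specific, against 59.2% of all peaks. The co-receptors, neuropilins and Plexin D1, which bind VEGF or semaphorins beside the receptors, had 12 ARE-specific (80.0%) and 3 HE-specific peaks. The nrp1a promoter peak had 8.08 in DP-R1lo and 6.98 in DP-R1hi, and all 3 nrp1a peaks and both plxnd1 peaks were ARE-specific. In contrast, the peak nearest to the TSS was HE-specific for nrp1b (7.16 in DP-R1hi, 4.55 in DP-R1lo) and nrp2a (7.50 and 6.10). Over all their peaks, 1 of 2 for nrp1b and 2 of 3 for nrp2a were ARE-specific. The nrp2b peak nearest to the TSS, in an intron, had 6.76 in DP-R1lo and 1.09 in DP-R1hi, and 4 of 5 nrp2b peaks were ARE-specific.

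Genes that process Vegfc had 2 peaks, both ARE-specific and at the lowest DP-R1hi value. Of all peaks 59.2% were ARE-specific, and 36.6% of the ARE-specific list was at that value, so 2 peaks say little about these genes. The ccbe1 peak had 6.22 and the adamts3 peak 4.69 in DP-R1lo. Ccbe1 and the protease Adamts3 together release active Vegfc. Both peaks were annotated as intronic. No peak was nearest to adamts14 or svep1, nor to the further ligand genes vegfbb, pgfa, pgfb and pgfl.

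The genes listed under signalling, the secreted factor egfl7 included, had 13 ARE-specific and 10 HE-specific peaks. Of these 56.5% were ARE-specific, close to the 59.2% of all peaks. The genes plcg1, the phospholipase that acts directly on activated receptors, gab1, an adaptor, and egfl7, an endothelial secreted factor, had 2 of 2, 3 of 4 and 5 of 6 peaks in the ARE-specific list. Their peaks nearest to the TSS had 6.19, 6.92 and 7.82 in DP-R1lo and 4.34, 4.88 and 6.20 in DP-R1hi. All peaks of the widely expressed kinase genes akt1 (2), akt3a (1) and src (1) and of pik3r1 (1), a regulatory subunit of PI3 kinase, were HE-specific. The peak of akt3a had 8.19 in DP-R1hi and 4.67 in DP-R1lo, and that of pik3r1 had 7.64 and 5.30. The gene plcg2 had equal numbers in both lists.

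Genes that respond to angiogenic signals had 16 ARE-specific and 5 HE-specific peaks. Of these 76.2% were ARE-specific, against 59.2% of all peaks. All 3 peaks of aplnrb, an apelin receptor of endothelium, were ARE-specific, and the exonic one at 383 bp from the TSS had 7.76 in DP-R1lo and -0.14 in DP-R1hi. The Notch ligand gene dll4 had 6 ARE-specific peaks, nrarpa and angpt2b had 2 each and cxcr4a had 1. The 6 dll4 peaks are the same ones that were counted under the arterial markers. The gene aplnra had peaks in both lists, with 2 of 3 ARE-specific. In the other direction, both peaks of apln, which encodes the ligand apelin, and both of esm1, a gene of sprouting endothelial cells, were HE-specific. The nearer apln peak had 5.11 in DP-R1hi and 0.71 in DP-R1lo, and the nearer esm1 peak had 5.71 and 1.87. These 4 peaks lay 17935 bp or more from the TSS.

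**Figure D4:**
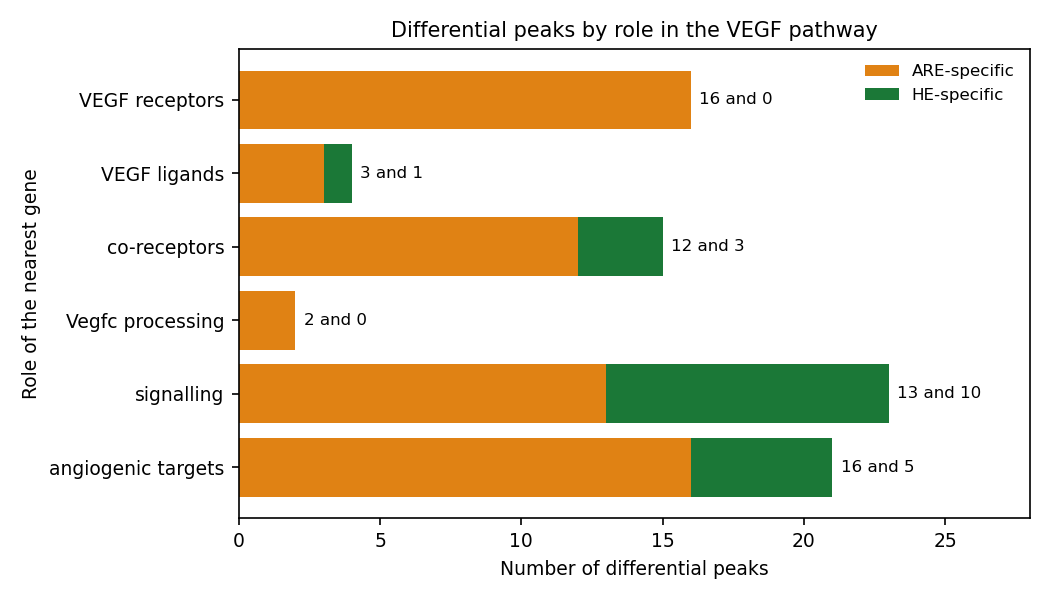
Number of differential peaks (x axis) by role of the nearest gene (y axis), split into ARE-specific (orange) and HE-specific (green), with both numbers at the bar end. Receptors had 16 ARE-specific and 0 HE-specific peaks, while signalling genes had 13 and 10.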

How the data were processed

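ATAC-seq libraries of sorted zebrafish cells were trimmed by the authors with Trimmomatic (0.32) and aligned with BWA (0.7.12) to GRCz10 (Zv10). The authors then called peaks against genomic DNA, dropped 1 of the 3 replicates from each of the DP-R1hi and DP-R1lo groups, compared these groups with DiffBind and edgeR, annotated peaks with HOMER and kept those past a fold change limit. The smallest difference in either list was 0.71 (log2). The deposited lists have no header. Their values were read as log2 group means made by the authors, as the combined column equalled the log2 mean of both groups within 0.01 in 9466 of 9466 peaks. This check cannot tell which column belongs to which group. The order of the groups was read from the population that each list calls closed, and no value per library was there to check it. The authors' fold changes and p-values were not used, and the differences are those of the group means. Nearest genes, distances (bp) and annotation classes are HOMER's, and 249 peaks have no gene symbol. A peak beside a gene need not regulate it. With 1 mean per group no new test was possible. Members and lists were chosen with earlier results of these data known. All family peaks are described, and pathway genes by role, with 1 pathway gene not reported here by name. Names were matched to RefSeq (GRCz12tu, names only). The merging of peaks was tested on simulated data. Python 3.11.15, numpy 2.4.6, pandas 2.3.3 and matplotlib 3.10.9 were used.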

Additional observations from a re-analysis of the deposited data

How the results depend on the processing

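No paired analysis was possible because each list gives only a mean for each group, and for the same reason no replicate could be left out. Of the 19 ARE-specific family peaks, 8 were left within 10 kb of the TSS, 11 without peaks at the lowest value and 5 with 1 peak per gene, and of the 1 HE-specific peak 0, 1 and 1. Fewer peaks enter each of these by construction. Of all peaks, 57.0%, 53.1% and 55.6% were ARE-specific in the same order of settings. The median difference of -4.03 moved to -2.62 without peaks at the lowest value and to -2.83 with 1 peak per gene. Its sign follows from the lists, as 19 of the 20 family peaks are ARE-specific. The number at the lowest DP-R1hi value fell from 8 to 4 within 10 kb and to 2 with 1 peak per gene. For the pathway list, the 43 ARE-specific peaks became 27 within 50 kb, 12 within 10 kb and 15 with 1 peak per gene. Its 18 HE-specific peaks became 11 with an absolute difference of at least 2, 0 within 10 kb and 9 with 1 peak per gene. The share of all peaks that were ARE-specific was 58.1% within 50 kb and 64.4% with an absolute difference of at least 2. Both lists come from 1 comparison in which a site has 1 direction, so that no overlap between lists was to be found at a family peak. No family peak had a peak of the other list within 1 kb, and 3 did within 10 kb. These numbers were not counted for the other peaks. Among alternatives that were chosen after the values were seen, adding peaks annotated inside a family gene gave 20 ARE-specific and 2 HE-specific peaks, and leaving out kdrl gave 14 and 1. Older symbols and accessions changed no count.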
